A study of Drosophila melanogaster with 4 samples.

Results

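Isolated regions of H3K79me3, the trimethylated form of lysine 79 on histone H3, were examined in whole-genome chromatin maps of fruit fly larvae. A region was counted as isolated when more than 20000 bp without any other enriched region lay on each side of it. Of the 5228 enriched regions on the large chromosome arms 2L, 2R, 3L, 3R and X, 240 met this rule, which is 4.59% of them. The first and last region of each arm, 10 in all, had been set aside because one of their gaps runs off the list. The series-wide list as a whole held 5331 enriched regions.

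The maps came from chromatin immunoprecipitation with sequencing (ChIP-seq) on wild-type Drosophila melanogaster of the Oregon-R strain at larval instar 3, with no treatment named and the same strain and stage in every sample. The labels list 2 ChIP libraries, made with a rabbit polyclonal antibody raised against an H3 peptide carrying the mark, and 2 input libraries, which were not analysed here. The labels name larvae and homogenised tissue and no dissected organ, so a region is not tied to 1 cell type. The authors deposited 1 list of called regions for each ChIP replicate and 1 series-wide list for the replicate set, each region with a first base, a last base and a score without a stated unit.

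Methylation of lysine 79 lies on the globular face of the nucleosome rather than on the histone tail, and is made by the Dot1 family of methyltransferases, whose fly member is grappa. Across animals it is found mostly over the bodies of transcribed genes, nearest their 5′ ends. Fly genes are packed closely along the euchromatic arms. Which genes lie in the isolated regions was not analysed here, because the coordinates are on FlyBase release 5 and genes could be looked up on release 6 alone. For the same reason no DNA sequence of a region is shown.

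Membership was decided by the positions in the series-wide list, so spacing, width and score in that list describe the members and are given without a test. The replicate lists come from the same libraries as the series-wide list and are not independent of it. The number of reads behind a region is unknown, since the lists hold no counts. The labels do not state if the 2 replicates stem from different larval collections, so differences between them may be technical.

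Most large-arm regions had a close neighbour. The smaller of the 2 gaps beside a region had a median of 1066 bp over all large-arm regions and of 34478 bp over the isolated ones, whose quartiles were 25462 and 50852 bp. Of the non-isolated regions, 1555 had a gap over 20000 bp on 1 side and 3433 on neither. On a log scale of spacing, the 2 classes just below the limit held 95 and 101 regions and the 2 just above it 73 and 53, so regions were frequent on both sides of the limit.

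**Figure D1:**
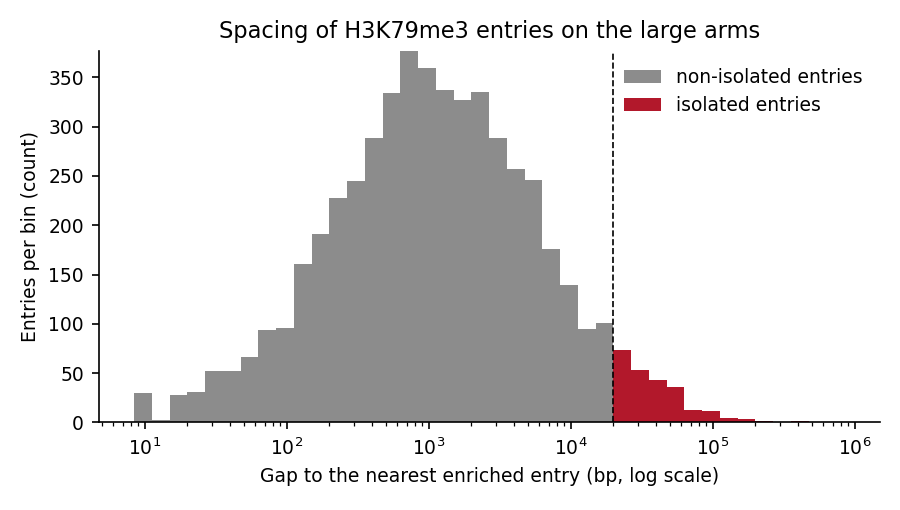
Number of large-arm regions of the series-wide list (y axis) by the distance in bp to the nearest enriched region (x axis, log scale), with isolated regions in red, all others in grey and the limit of 20000 bp as a dashed line. The 52 regions with a gap under 8.43 bp are left out, and the counts next to the limit are 101 regions in the last grey class and 73 in the first red class.

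Regions on the 2 sides of the limit varied in width and score. Just inside it, a region on 2L from 11154576 to 11155600, 1025 bp wide with a score of 0.317, had a smaller gap of 20005 bp and was called in neither replicate. The next 2 inside had smaller gaps of 20109 bp (3R from 15758592 to 15760548, score 0.426) and 20147 bp (3L from 12464164 to 12466876, score 0.781). Just outside lay a neighbouring pair on 3R, from 25923536 to 25938554 with a score of 1.17 and from 25958450 to 25960330 with a score of 0.299, which were 19895 bp apart. The next outside, on 3R from 6653258 to 6658964, had a smaller gap of 19727 bp and a score of 0.476.

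The 240 isolated regions together covered 1.17 Mb, or 3.62% of the length called on the large arms. The 420 separate gaps beside them added up to 29.6 Mb, which is 24.9% of the sequence of the 5 arms. Replicate calls seldom fell inside these gaps, or outside series-wide regions at all. Of the large-arm regions that met no series-wide region, 14 were in replicate 1 and 6 in replicate 2. None of the former and 2 of the latter lay in a gap beside a member. When gaps were also counted to regions of the replicate lists that did not overlap the member, all 240 were still isolated. That outcome was nearly fixed in advance, because so few replicate regions lay outside all series-wide regions. Of the depleted regions named in the series-wide list, 1 lay in a flanking gap.

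Over the 5 arms together, isolated regions had a lower median width and a lower median score than the others. Their median width was 3048 bp, with quartiles of 1962 and 5950 bp, against 3710 bp (2035 and 7680 bp) for the 4988 non-isolated regions. The median score was 0.629 (0.384 and 1.08) against 0.729 (0.401 and 1.28). The lower quartiles thus lay close together and the upper quartiles further apart. The difference in width did not hold everywhere. On 3R the members were the wider ones, with a median of 4073 against 3715 bp, and when spacing was counted within the top 50% of the list by score, isolated regions were wider than the others by 150 bp at the median. Regions of at least 20 kb made up 6 of the 240 (2.50%) and 233 of the 4988 (4.67%). Regions narrower than 1301 bp, the narrowest call of either replicate list, made up 8.33 and 7.92%.

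Part of the score difference went with width. In the narrowest of 4 equal width groups the median score was 0.323 for isolated and 0.334 for non-isolated regions, and in the next it was 0.558 and 0.554. In the 2 wider groups it was 0.914 against 1.01, and 1.25 against 1.38. Within width groups, the median scores were thus nearly equal among the narrow regions and apart among the wide ones. Width still differed within the outer groups. The median width was 1630 bp for isolated and 1509 bp for non-isolated regions in the narrowest group, and 11115 against 12441 bp in the widest. In the third group it was 5139 against 5204 bp. Score and width rose together across the 240 members with Spearman's rho of 0.745, and across the non-isolated regions with 0.809; regions share their libraries and are not replicates.

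Regions with a wide gap on 1 side did not sit midway in score between the isolated and the enclosed ones. Their median score was 0.762, above the 0.711 of regions with no wide gap and the 0.629 of isolated ones. Their median width was 3601 bp, against 3747 bp with no wide gap and 3048 bp when isolated. Among the members, 101 had a smaller gap of 20 to 30 kb, with a median score of 0.683, and 74 had one of 30 to 50 kb, with 0.589. For 50 members with 50 to 100 kb it was 0.550, and for the 15 beyond 100 kb it was 0.873.

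The same rule applied within each replicate list gave a like contrast in both. It found 242 isolated regions in replicate 1 (4.80% of 5038) and 293 in replicate 2 (6.37% of 4603), a mean of 267.5 ± 36.1 (SD, n = 2). In replicate 1 their median width was 3059 bp against 3707 bp for the other regions of that list, and in replicate 2 it was 3361 against 3892 bp. The median score was 0.888 against 0.952 in replicate 1 and 0.823 against 0.888 in replicate 2, a difference of -0.0645 ± 0.000376 (SD, n = 2). No test was made over the 2 replicates.

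Most members were isolated in the replicate lists too. Isolated regions of both replicate lists met 151 of the members (62.9%), those of replicate 1 alone met 25 more, and those of replicate 2 alone met 29. The 151 form a set isolated in all 3 lists. Their median score in the series-wide list was 0.796 and their median width 3165 bp, and the narrowest was 1599 bp wide. Read the other way, 72.7% of the isolated regions of replicate 1 and 61.4% of those of replicate 2 met a member. The remaining 35 members met no isolated region of either replicate, and 15 of them did overlap a replicate region.

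Of the 189 members called in both replicates, 38 were not isolated in both. Each of the 38 had been called in pieces in a replicate, which follows nearly by construction, since no other replicate region came within the limit of any member. The split was in replicate 1 for 31, in replicate 2 for 21 and in both for 14, into at most 4 pieces. The split members had a median width of 8745 bp, against 3165 bp for the 151 that each replicate called as 1 region, and a similar median score of 0.790 against 0.796. Splitting was about as common among non-isolated regions called in both replicates, 671 of 3741 (17.9%, against 20.1% of the members).

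The members were found on all 5 arms. Arm 2L had 55 (5.98% of its regions, 2.39 per Mb), 2R had 46 (4.34%, 2.18 per Mb) and 3L had 52 (5.02%, 2.12 per Mb). There were 52 on 3R (4.30%, 1.86 per Mb) and 35 on the X (3.49%, 1.56 per Mb). The order did not simply follow the density of calls: 2L had the fewest regions per Mb, 40.0, and the most members per Mb, while the X had the fewest members per Mb at 44.7 regions per Mb, above the 42.2 of 3L and the 43.3 of 3R. Median scores of members were lowest on 2R, at 0.559 (0.731 for non-isolated regions of that arm), and 3L, at 0.567 (0.705). They were 0.616 on 2L (0.681), 0.709 on 3R (0.716) and 0.715 on the X (0.820). On each arm the members had the lower median score, by the least on 3R.

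On the arms of chromosome 2, isolated regions made up a larger share of the calls next to the centromere than in any other 10% of the arm, and on 3L, 3R and the X they did not. Over the 5 arms together, the 10% of the arm nearest the centromere held 36 members, which is 15.0% of the members, against 5.87% of the non-isolated regions. These 36 were 10.9% of the 329 regions called there, whereas 4.59% of all large-arm regions were isolated. They numbered 12 on 2L, 11 on 2R, 4 on 3L, 6 on 3R and 3 on the X. As a share of the calls in that stretch they were 16.9% on 2L, 20.8% on 2R, 10.0% on 3L, 5.41% on 3R and 5.56% on the X. Over the whole arms the shares were lower on each, at 5.98, 4.34, 5.02, 4.30 and 3.49% in the same order. The 2 arms of chromosome 2 together gave 23 of 124 regions (18.5%, against 5.10% over their whole length), and the other 3 arms 13 of 205 (6.34%, against 4.28%). On these 3, other stretches had higher shares: 9 of 80 regions (11.2%) from 70 to 80% of the arm and 9 of 87 (10.3%) from 20 to 30% on 3L, 8 of 106 (7.55%) from 50 to 60% on 3R and 7 of 100 from 50 to 60% on the X. Pericentric sequence in the fly grades into heterochromatin, which holds few genes and many repeats.

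Within the replicate lists a like share was found over the 5 arms together: 36 of the 242 isolated regions of replicate 1 lay in the proximal 10% of the arms (14.9%, against 5.55% of its other regions), and 45 of the 293 of replicate 2 (15.4% against 5.78%). The share in this stretch was 15.1 ± 0.341% (mean ± SD, n = 2).

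The stretch from 10 to 20% of the arm held few members, 14 of 628 regions (2.23%). Shares rose again in the stretch from 50 to 60% of the arm, with 38 of 525 regions (7.24%), and from 70 to 80%, with 34 of 496 (6.85%). Between them, from 60 to 70%, 15 of 640 regions (2.34%) were isolated. The 38 members of the first of these stretches came from every arm, 9 on 2L, 8 on 2R, 6 on 3L, 8 on 3R and 7 on the X. The 34 of the second comprised 8, 6, 9, 7 and 4 on the same arms. Divided into only 3 equal parts, the 5 arms together showed no such pattern: 78 members lay in the proximal part (32.5%, 95% Wilson interval 26.9 to 38.7%), 84 in the middle and 78 in the distal part, and 31.8% of the non-isolated regions were in the proximal part. Single arms differed in direction. The proximal part held more of the members than of the non-isolated regions on 2L (36.4 against 28.7%), 2R (41.3 against 31.0%) and 3L (34.6 against 30.3%). It held less of them on 3R (23.1 against 34.9%) and the X (25.7 against 33.1%).

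**Figure D2:**
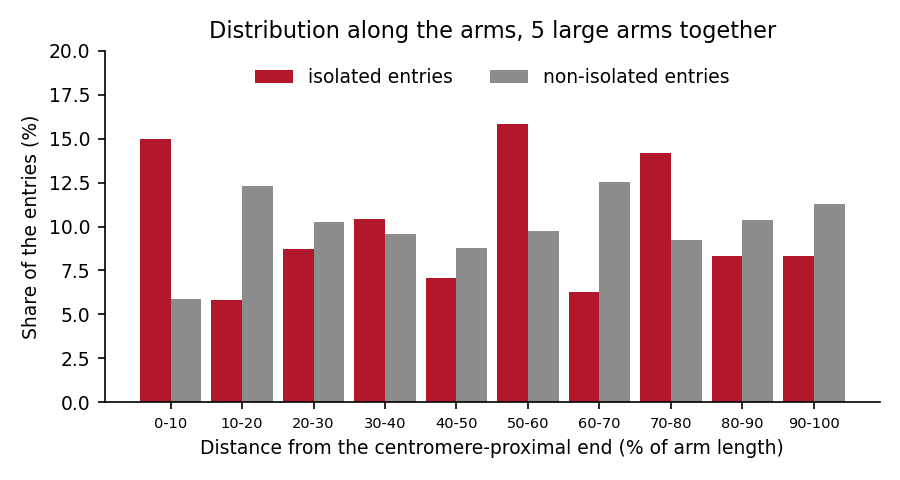
Share in percent (y axis) of the 240 isolated regions (red) and the 4988 non-isolated regions (grey) of the series-wide list in each 10% of the arm, counted from the centromere-proximal end in percent of arm length (x axis), for the 5 large arms together. The isolated regions stand furthest above the others in the first 10%, at 15.0 against 5.87%, and next from 50 to 60% and from 70 to 80%.

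Some isolated regions followed one another. Read along the arms, 103 of the 240 stood next to another member in the list, in 43 runs of at least 2, and 137 stood singly. By the rule, every neighbour of a member already has a wide gap on the facing side. The number of runs to be met from this alone was not computed, so the count is no result about clustering. The longest run was 7 members on 2R between 74270 and 561136, a span of 487 kb at the centromere-proximal end. Scores in this run lay between 0.117 and 0.559, all below the 0.724 that was the median of the large arms. Of the 7, 5 were called in both replicates, as were 76.6% of all regions in the proximal 10% of the arms. The run of 6 members on 2L between 22471624 and 22876790, 405 kb, was also centromere-proximal, with scores from 0.121 to 0.820 and 4 called in both replicates. The next run, of 4 members on 3R between 22012880 and 22159880, lay in the distal part of its arm, with scores from 0.201 to 1.45. All 4 were called in both, as were 75.2% of all large-arm regions, and the runs are too short to compare with these shares. Of the other runs, 6 held 3 members and 34 held 2.

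**Figure D3:**
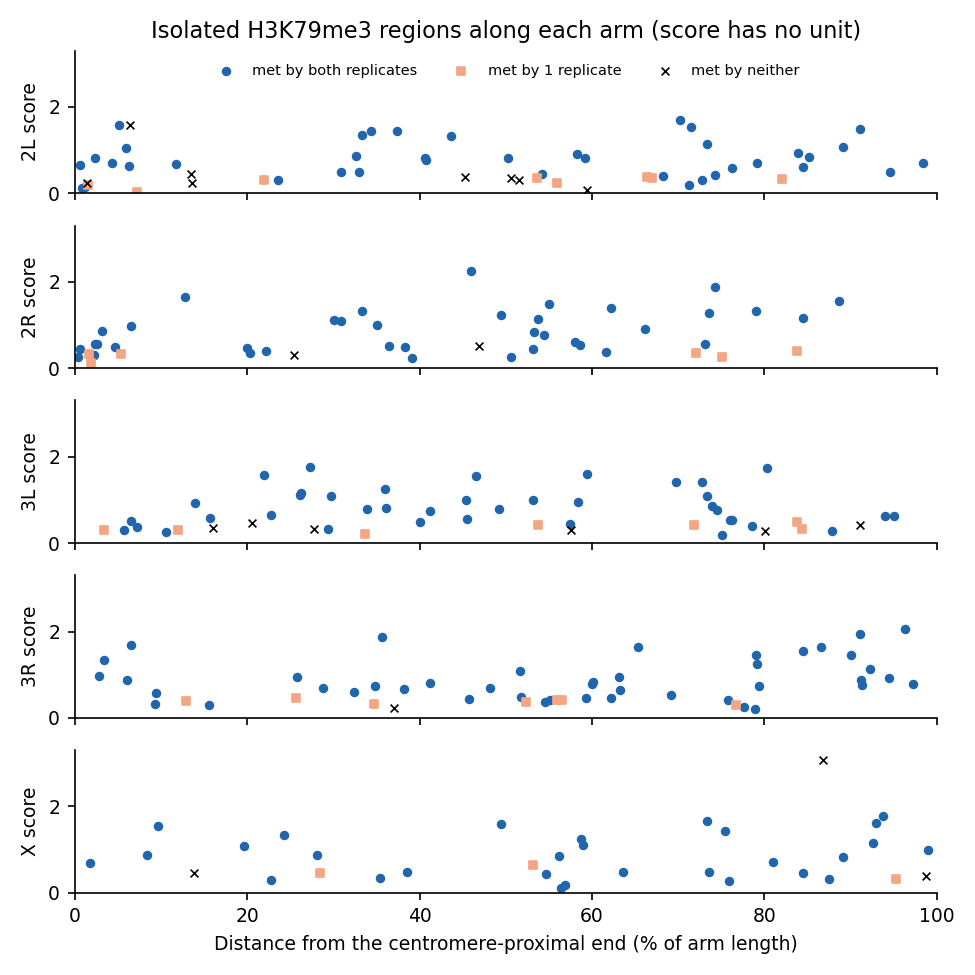
Score of each of the 240 isolated regions in the series-wide list (y axis, no unit) by its distance from the centromere-proximal end in percent of arm length (x axis), 1 panel per arm, with blue circles for regions called in both replicates, orange squares for 1 replicate and black crosses for neither. Crosses and squares lie mostly at low scores, with 1 cross at 3.08 on the X and 1 at 1.57 on 2L as exceptions.

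Isolated regions were called in both replicates about as often as the others overall. A region of the series-wide list was counted as called in a replicate when it overlapped a region of that list by at least 1 bp. Of the 240, 189 were called in both (78.8%, 95% Wilson interval 73.1 to 83.5%), against 75.2% of all large-arm regions and 3741 of the 4988 non-isolated ones (75.0%). In neither replicate were 20 (8.33%, 5.46 to 12.5%), against 12.6% of all large-arm regions. Replicate 1 alone had 19 (7.92%, against 8.93% of all large-arm regions) and replicate 2 alone had 12 (5.00%, against 3.25%). Taken singly, 208 were called in replicate 1 (86.7%, where all large-arm regions gave 84.1%) and 201 in replicate 2 (83.8%, against 78.4%). The intervals cover counting error only, and treat regions as independent, which neighbours are not.

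In the lowest score group, the share called in both replicates was higher for isolated than for non-isolated regions, a difference that was not tested because the same libraries gave the spacing and the calls. The large-arm regions were divided by score into 4 groups of 1307. In the lowest group, with scores up to 0.400, 29 of 63 isolated regions were called in both replicates (46.0%, 95% Wilson interval 34.3 to 58.2%), against 313 of 1244 non-isolated ones (25.2%, 22.8 to 27.6%) and 26.2% of the whole group. In neither replicate were 19.0% (11.2 to 30.4%) of the isolated and 39.2% (36.6 to 42.0%) of the non-isolated regions, 38.3% over the group. In the second group the shares in both were 78.9% (68.0 to 86.8%) and 75.2% (72.8 to 77.6%), and 75.4% over the whole group. In the third group 63 of 63 isolated regions and 99.3% of the others were called in both. In the highest group it was 41 of 43 (95.3%, 84.5 to 98.7%) and 1263 of 1264, 99.8% over the group.

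The low-score contrast was present for each replicate taken singly and was larger for replicate 2. In the lowest group, replicate 1 called 65.1% of the isolated and 51.0% of the non-isolated regions (51.7% over the group), and replicate 2 called 61.9 and 34.9% (36.2%). It was ordered by spacing within the group: 20.1% of 422 regions with a gap under 500 bp were called in both replicates, 24.5% of 404 with a gap of 500 to 2000 bp, 30.9% of 418 with a gap of up to 20000 bp, and 46.0% of the 63 isolated ones. The median scores of these classes fell slightly, from 0.332 and 0.331 to 0.316 and 0.305. Median widths were 1653, 1669, 1661 and 1751 bp. With regions under 1301 bp left out, 29 of 53 isolated regions (54.7%) and 313 of 968 others (32.3%) were called in both.

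The contrast in the lowest group depended on the gap limit and on the score. At a limit of 10000 bp, 34.4% of 131 isolated regions and 25.3% of the others were called in both replicates. At or below the median score of the group, 22 of 40 isolated regions (55.0%, 95% Wilson interval 39.8 to 69.3%) and 26.1% of the others were. Above it the values were 7 of 23 (30.4%, 15.6 to 50.9%) and 24.3%, a share of others that lies within the interval.

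By arm, the contrast was not uniform either. On 2L, 5 of 19 isolated regions (26.3%) were called in both replicates, close to the 27.9% of non-isolated ones. The shares were 6 of 12 against 26.5% on 2R, 7 of 15 against 27.4% on 3L, 5 of 10 against 24.4% on 3R and 6 of 7 against 17.0% on the X. These counts are small, and the X gave the widest separation. With the arms cut into 3 equal parts, the proximal part (48.1 against 25.8%) and the other two together (44.4 against 24.8%) gave like values.

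Chosen in 1 replicate and looked up in the other, low-score isolated and other regions differed less, on a measure unlike the one above. Among regions in the lowest of 4 score groups of replicate 1, 57 of 77 isolated ones (74.0%, 95% Wilson interval 63.3 to 82.5%) and 67.0% (64.3 to 69.7%) of the others were also called in replicate 2, and 67.5% over the group. For the lowest score group of replicate 2, 81 of 93 (87.1%, 78.8 to 92.5%) and 85.3% (83.1 to 87.3%) were also called in replicate 1, and 85.5% over the group. The intervals overlap in both directions, but they treat regions as independent and stand for no test. Over all scores, 89.7% of the isolated and 89.5% of the other regions of replicate 1 had a counterpart in replicate 2, and 94.9 and 95.7% the reverse way; over all large-arm regions of each list it was 89.5 and 95.7%. These shares used different libraries for the choice and the look-up, which the comparison within the series-wide list did not. They also count a call in 1 other list rather than in both, for regions already called in a replicate. Isolation and score groups were those of the replicate list. In the series-wide lowest group, 286 of 1307 regions were narrower than any replicate call. The sizes of the 2 contrasts are thus not directly comparable.

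**Figure D4:**
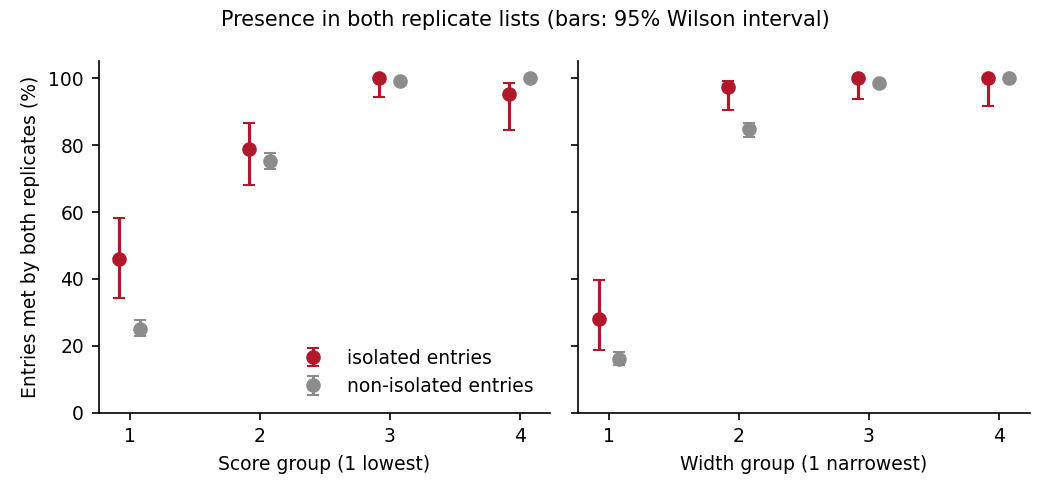
Share of series-wide regions called in both replicates in percent (y axis), with 95% Wilson intervals as bars, for isolated (red) and non-isolated (grey) regions in 4 groups by score (left panel) and by width (right panel). The 2 kinds differ most in the lowest score group, at 46.0 and 25.2%, and the second width group, at 97.3 and 84.7%, while nearly all regions of the highest groups were called in both.

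Grouped by width instead, the share was again higher for isolated regions in the narrow groups. In the narrowest group, up to 2025 bp, 19 of 68 (27.9%, 18.7 to 39.6%) of the isolated and 16.1% (14.2 to 18.3%) of the non-isolated regions were called in both, 16.8% over the group. In the second group, 71 of 73 (97.3%, 90.5 to 99.2%) were, against 84.7% (82.6 to 86.6%), and 85.4% over the group. All isolated regions of the wider groups, 57 and 42, were called in both replicates, where 98.5% and 1307 of 1307 of all regions in those groups were.

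The borders of the members were placed alike in both replicates. For the 151 members called as 1 region in each, the first and last bases differed between replicates by a median of 87 bp, with an upper quartile of 195 bp. Non-isolated regions gave 93 and 220 bp. Replicate 1 covered a median of 95.7% and replicate 2 of 93.8% of the width of the members called in both.

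By score within their own list, members called in both replicates also ranked alike. Their scores in the 2 replicates rose together with Spearman's rho of 0.942 (189 regions that share libraries, so no p-value is given). The median percentile of the member counterparts was 43.1 among the regions of replicate 1 and 42.8 among those of replicate 2, against 54.8 and 54.3 for counterparts of non-isolated regions. The percentiles of a member differed between replicates by a median of 5.56 points and at most 30.1.

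Of the members called in 1 replicate, the 6 near the centromere were all in replicate 2, a small count that was not tested. Of the 36 in the proximal 10%, 28 were called in both replicates (77.8%, against 76.6% of all regions there), 6 in replicate 2 alone, none in replicate 1 alone and 2 in neither (10.6% of all regions there were in neither). In the rest of the arms the counts were 161 (78.9%), 6, 19 and 18 of 204. For non-isolated regions there they were 3517 (74.9%), 144, 426 and 608 of 4695. Of the 28, 17 had the higher percentile in replicate 2, with a median difference of 2.52 points, whereas 59 of 161 elsewhere did, with -1.78. Among non-isolated regions of the proximal 10%, 14 were called in replicate 2 alone and 22 in replicate 1 alone. Of the 224 called in both, 100 had the higher percentile in replicate 2, with a median difference of -0.863 points. Elsewhere, 1312 of 3517 non-isolated regions did, with -2.06. Near the centromere, the balance thus lay further toward replicate 2 among non-isolated regions too, though less so than among members. The proximal members had a median score of 0.559, against 0.646 for the rest, and whether the low score accounts for the counts was not tested.

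The 6 proximal members called in replicate 2 alone were all narrow and weak. They lay on 2L from 21344374 to 21346022 (series-wide score 0.0287, replicate 2 score 0.152) and from 22646142 to 22647858 (0.205 and 0.439). On 2R they lay from 356622 to 358486 (0.331 and 0.624), from 402692 to 404218 (0.117 and 0.271) and from 1136568 to 1138572 (0.325 and 0.486). The last was on 3L from 23708052 to 23710044 (0.311 and 0.421), 1993 bp wide, and had the widest surroundings of any member, with 374 kb free of regions on one side and 820 kb on the other.

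**Figure D5:**
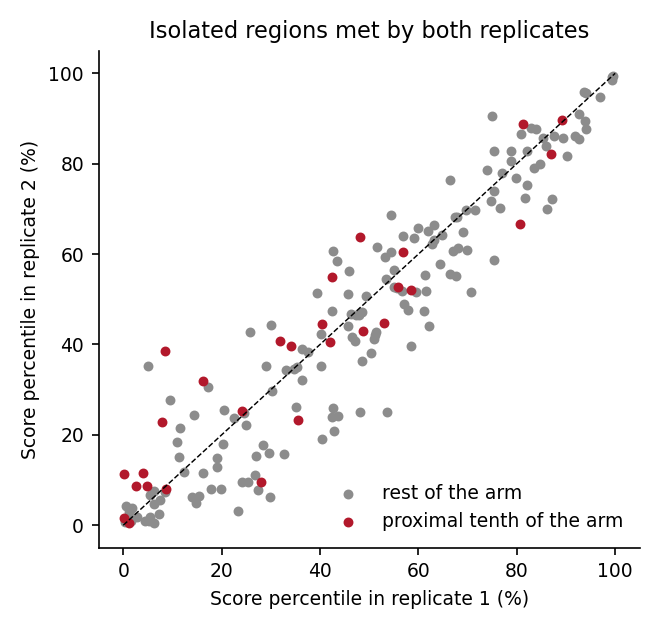
Percentile by score within the replicate 2 list (y axis, percent) against that within the replicate 1 list (x axis, percent) for the 189 isolated regions called in both replicates, with the 28 of the proximal 10% of the arms in red, the other 161 in grey and equal percentiles as a dashed line. Points follow the line over the whole range, and 17 of the 28 red points lie above it.

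The highest-scoring isolated regions came from all 5 arms. The highest with a call in both replicates was on 2R from 9707010 to 9713450. It was 6441 bp wide, with a score of 2.24 in the series-wide list, 2.51 in replicate 1 and 2.15 in replicate 2, and had 224 kb free on one side and 26.6 kb on the other. On 3R, the region from 26877762 to 26887456 (9695 bp) scored 2.05, with 2.44 and 2.01 in the replicates, between gaps of 135 and 130 kb. It was called as 2 pieces in replicate 1. Another on 3R, from 25416940 to 25420976 (4037 bp), scored 1.94, with 2.15 and 1.79, between gaps of 26.3 and 23.3 kb.

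Of the next ones, the region on 2R from 15710670 to 15720752 scored 1.88, with 2.42 and 2.08 in the replicates, between gaps of 151 and 148 kb. Replicate 1 covered 69.6% of its width and replicate 2 covered 85.5%. On 3R, the region from 9945512 to 9955140 scored 1.88 (2.00 and 1.81 in the replicates). On the X, the region from 1406298 to 1409988 scored 1.78 (1.94 and 1.67). On 3L, the regions from 17834576 to 17844412 and from 4818574 to 4828010 scored 1.76 and 1.74, and on 2L the one from 6851526 to 6856170 scored 1.71. These 9 regions were each called in both replicates, and by score within each replicate list all lay at a percentile of 86.2 or above.

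Of the 5 widest isolated regions, 4 were called in at most 2 pieces in each replicate. The widest, on 3L from 19136598 to 19167674, spanned 31077 bp with a score of 1.57, and the replicates covered 99.7 and 99.1% of it. On 2R, the region from 11621460 to 11645826 spanned 24367 bp (score 1.48). On 3R, the one from 24146344 to 24170246 spanned 23903 bp (score 1.63), between gaps of 334 and 187 kb. On the X, the region from 11330740 to 11351652 spanned 20913 bp (score 1.60). The other was on the X from 2419836 to 2440806, 20971 bp wide with a score of 0.839. It was called in 3 pieces over 86.2% of its width in replicate 1 and in 4 pieces over 65.7% in replicate 2.

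The most remote member differed from arm to arm. On 3R it was the 23903 bp region just named. On 2R it was the region from 16714894 to 16723362, 8469 bp wide with a score of 1.32 and gaps of 155 and 157 kb, called in 2 pieces in replicate 1 and in 1 in replicate 2. On the X it was narrow and weak, from 14474196 to 14477110 (2915 bp, score 0.352), with 316 and 225 kb free beside it and replicate scores of 0.606 and 0.434. On 2L it was the region from 17963348 to 17964876 (1529 bp, score 0.298), between gaps of 215 and 166 kb and called in replicate 2 alone. The 3L region with 374 and 820 kb was described above with the centromere-proximal ones. Remote members thus included both wide, high-scoring regions and narrow ones called in a single replicate.

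Members without a call in either replicate were almost all narrow. The 20 had a median width of 1201 bp and a maximum of 1853 bp, and 15 were narrower than 1301 bp. Their median score was 0.341. Only 2 of them scored above the large-arm median of 0.724. One was the top score of the entire series-wide list, 3.08 on the X from 2965030 to 2966030, 1001 bp wide with gaps of 97.0 and 62.5 kb. The other was on 2L from 21539842 to 21541196, 1355 bp wide with a score of 1.57. The next highest were 0.521 on 2R from 9927052 to 9928186, 0.461 on 3L from 19480406 to 19481498 and 0.457 on the X from 19325956 to 19327174.

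At the other end, some of the weakest members were nevertheless called in both replicates. The lowest was on 2L from 22817342 to 22818940, with a score of 0.121 in the series-wide list, 0.244 in replicate 1 and 0.210 in replicate 2. A second on 2L, from 22736484 to 22738374, scored 0.150 (0.103 and 0.276 in the replicates), and both belonged to the proximal run of 6. A neighbouring pair on the X lay from 9672300 to 9674086 (0.186, with 0.272 and 0.244) and from 9778032 to 9779694 (0.122, with 0.157 and 0.236). The last was on 3L from 6120578 to 6122292 (0.191, with 0.175 and 0.355). All 5 were between 1599 and 1891 bp wide, and none lay above a percentile of 4.29 by score in either replicate list.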

How the data were processed

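Regions called by the authors from ChIP-seq of 2 libraries were used. Per the submitters' processing notes, Bowtie 0.12.7 was among the tools; coordinates are on FlyBase release 5, 1-based, per the file headers. For the region caller, its threshold and the joining of replicates, nothing is stated in the sources used here. The score of each region is as deposited by the authors, without a unit. Scores were compared within a list, and between the replicate lists by rank and percentile. An exception was the SD of replicate medians that served as a limit of change. Depth is unknown.

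From the deposited lists, gaps were the bases between neighbouring enriched regions of the same list, and the rule for isolation was a gap over 20000 bp on both sides. Depleted regions, 7 in the series-wide list, were left out. The centromere-proximal end was taken as the high-coordinate end of 2L, 3L and X and the low-coordinate end of 2R and 3R. Members, comparisons and alternatives were chosen with earlier results of these data known. Regions named are members with the 10 highest scores, the 5 widest, the 5 most remote and the most remote on each arm, the 5 highest scores called in neither replicate, the 5 lowest called in both, and the 3 regions on each side of the limit; the longest runs and the 6 proximal members called in replicate 2 alone were chosen after their values were seen. Splits of the lowest score group by arm, spacing, score and width were also added then. Alternatives were other gap limits, other overlap rules, gaps counted over all 3 lists, the top 50% by score, arms without their proximal 2 Mb, each replicate alone, and narrow regions left out. Python 3.11.15, numpy 2.4.6, pandas 2.3.3, statsmodels 0.14.6 and matplotlib 3.10.9 were used. Gap and overlap code was tested on simulated data, where it equalled base-by-base counts in 20 of 20 pairs of lists.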

Additional observations from a re-analysis of the deposited data

Results flagged for a closer look

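The same rule of spacing was met on sequence that no comparison used, and the counts are given as values only. On chromosome 4, 5 of 43 regions were isolated, all 5 called in both replicates, with scores from 0.258 to 1.40. On the heterochromatic scaffolds it was 10 of 17, 5 of them called in both replicates and 2 in neither. On the unplaced sequence U it was 15 of 18, with 8 called in both and 4 in neither. The shares called over all regions of these sequences are not given here, so the counts called are no result about isolation. These sequences are short or joined from unplaced pieces, so gaps on them do not have the meaning they have on an arm.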

How the results depend on the processing

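No paired analysis was possible because the input libraries, which share replicate numbers with the ChIP libraries, were not analysed here. Of 56 recomputed values, 32 stayed within their counting interval, 1.5 times the count or 1 SD of the replicate medians. This SD was 9.90 bp for width and 0.0356 for score, taken over the replicate regions that met members. A gap limit of 10000 bp gave 487 members. A limit of 30000 bp gave 139, with a median width of 2787 bp, a median score of 0.587 and 38.8% in the most proximal of 3 equal parts of the arm. Spacing counted within the top 50% by score gave 408 members, with a median width of 7209 bp and score of 1.14. Of these, 99.5% were called in both replicates and 0.490% in neither. The 2 shares differed from those of the other regions in that subset by only -0.0379 and 0.264 points. There, the isolated regions were wider than the others by 150 bp at the median, the opposite of the whole list; the cause was not tested. Without the proximal 2 Mb of each arm, the median width was 3189 bp and 21.7% lay in that part. Of the members, 47.1% lay in the proximal 50% of the arm. Overlap of 50% of both regions left 72.5% called in both replicates, 3.27 points above the other regions. Leaving out regions under 1301 bp before spacing was counted, chosen after seeing the data, gave a median width of 3464 bp and a score of 0.712. Called in both were 85.2% and in neither 3.12%, which differed from the other regions by 3.70 and -3.28 points. With 1 replicate left out, 83.8 to 86.7% were called in the other and 13.3 to 16.2% were not; within the replicate lists, 242 to 293 were isolated. In the lowest score group, 34.4% were called in both replicates at a limit of 10000 bp and 48.8% at 30000 bp, against 25.3 and 25.4% of the others, and single replicates called 61.9 to 65.1% of the members.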
